A study of Homo sapiens with 6 samples.

Results

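The genes described here are 9 enzymes and cofactors that write, copy and remove DNA methylation, namely DNMT1, UHRF1, DNMT3A, DNMT3B, TET1, TET2, TET3, IDH1 and IDH2. They were taken as a fixed list of symbols, and all 9 were found among the 58381 gene identifiers of the count table. RNA was sequenced from MOLM-13 cultures after 20 h, either with DB2115 at 5 µM or with the vehicle DMSO alone at 0.001%. This established human line derives from acute myeloid leukaemia, and both groups consist of that 1 line grown in RPMI medium with serum, so no other genetic background was sampled. DB2115 is known here only by its code name, and the series title concerns pharmacological redirection of the transcription factor PU.1. The labels list 3 libraries per group. In each group 1 column of the table equalled the other columns added up, within 1% in 98.5% of genes with at least 200 counts, so 2 libraries per group, A and B, were analysed.

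Methyl groups on cytosine in CpG pairs are copied to the daughter strand after replication by DNMT1, which UHRF1 brings to hemimethylated sites. New methylation is laid down by DNMT3A and DNMT3B, and the TET dioxygenases oxidise 5-methylcytosine in a reaction that needs 2-oxoglutarate. IDH1, in the cytosol and peroxisomes, and IDH2, in mitochondria, make 2-oxoglutarate from isocitrate, and mutant forms of both make 2-hydroxyglutarate, an inhibitor of TET enzymes. DNMT3A, TET2, IDH1 and IDH2 are recurrently mutated in acute myeloid leukaemia. Gene counts carry no information on mutation, isoform, protein, metabolite or methylation itself.

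After DB2115 the de novo methyltransferase genes rose, DNMT3A 3.20-fold and DNMT3B 2.21-fold, while no change was called for DNMT1, the maintenance enzyme. UHRF1, the DNMT1 recruiter, fell 1.41-fold. TET2 rose 1.45-fold and TET3 1.16-fold, whereas TET1 was lower from an already low level. The isocitrate dehydrogenase genes moved in opposite directions, IDH1 falling 1.5-fold and IDH2 rising 1.43-fold. The directions of TET3 and IDH2 turned when a trend of fold changes with transcript GC and length was removed, though IDH2 was at 0.05 relative to the median of all genes. In a second form of that correction TET3 was at 0.01 and IDH2 at 0.47 on the log2 scale. In all, 5 of the 9 genes rose, 2 fell, DNMT1 was not called, and TET1 was called lower but was tested only because of its vehicle counts, at an adjusted p under 0.05 (edgeR, quasi-likelihood, Benjamini-Hochberg) over 17219 genes. In the same fit 64.1% of all genes were called, 32.7% higher and 31.3% lower, so calls were frequent throughout and those on these genes set no group apart. Changes of at least 2-fold were called in 27.0% of all genes, and here in DNMT3A and DNMT3B, beside TET1.

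Promoter sequences of 4 genes that rose and of UHRF1, which fell, are shown as the sequences searched for motifs. Each is the 250 bases before 1 RefSeq start site, from RefSeq on GRCh38.p14, on the gene's strand, and for UHRF1 only 30 bases are given. RefSeq lists several starts for most of these genes, and where a window with a motif exists such a window is printed. The DNMT3A and DNMT3B windows belong to start sites inside the GENCODE 29 gene, 90275 and 17467 bases from its annotated start. The UHRF1 start site lies 6421 bases inside its gene and that of TET3 at -1494 bases, upstream of its gene. Only that of TET2 is the annotated start. The letters CACGTG (an E-box), TTTCCCGC and TTTGGCGC (E2F-type), and GAGGAAGT (PU.1-type) were searched on both strands, and matches are in capitals. The windows are chr2:25252316-25252565 (minus strand, 1 of 6 listed for DNMT3A), chr20:32779602-32779851 (plus), chr4:105145625-105145874 (plus), chr2:73984660-73984909 (plus) and, for UHRF1, chr19:4909471-4909500 (plus).
DNMT3A: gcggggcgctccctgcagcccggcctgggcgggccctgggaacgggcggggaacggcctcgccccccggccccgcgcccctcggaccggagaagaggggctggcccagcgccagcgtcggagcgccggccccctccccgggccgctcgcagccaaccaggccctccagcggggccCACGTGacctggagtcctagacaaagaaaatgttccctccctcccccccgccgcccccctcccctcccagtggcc
DNMT3B: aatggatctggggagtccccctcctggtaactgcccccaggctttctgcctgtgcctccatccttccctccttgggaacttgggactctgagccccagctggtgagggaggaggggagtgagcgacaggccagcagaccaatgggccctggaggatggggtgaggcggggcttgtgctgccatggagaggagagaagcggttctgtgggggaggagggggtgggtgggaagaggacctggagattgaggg
TET2: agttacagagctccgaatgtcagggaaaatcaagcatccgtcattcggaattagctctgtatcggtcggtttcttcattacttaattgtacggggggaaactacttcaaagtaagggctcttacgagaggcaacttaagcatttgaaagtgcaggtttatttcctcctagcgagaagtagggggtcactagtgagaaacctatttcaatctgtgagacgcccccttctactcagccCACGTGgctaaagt
TET3: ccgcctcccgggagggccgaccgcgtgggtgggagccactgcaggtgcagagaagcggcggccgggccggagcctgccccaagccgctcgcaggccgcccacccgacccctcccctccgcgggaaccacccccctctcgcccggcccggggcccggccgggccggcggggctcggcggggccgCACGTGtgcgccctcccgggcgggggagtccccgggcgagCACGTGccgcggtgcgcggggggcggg
UHRF1: caaatgccgagttttcGCGGGAAAaaaatc

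Of the 21 windows listed for the 9 genes, 4 held CACGTG, in 2 of 6 windows of DNMT3A, 1 of 2 of TET2 and 1 of 2 of TET3. The 2 DNMT3A windows overlap and hold the same CACGTG, so windows are not separate sites. The only windows listed for DNMT1, DNMT3B and IDH2 held none of the motifs named above. The run AAAAA was searched as well and is not capitalised. It occurred in the IDH2 window, in every TET1 window and in the UHRF1 window shown, and in 36.6% of all genes' windows. CACGTG occurred once in the DNMT3A window, with its first base 75 bases before the start site, once in the TET2 window at 14 bases, and in 2 copies in the TET3 window at 67 and 27 bases. In 1 of its 3 windows UHRF1 held TTTCCCGC on the opposite strand, beginning 14 bases before the start site. Of 35116 such windows of all genes, 6.34% held CACGTG, 1.39% TTTCCCGC, 0.55% TTTGGCGC and 2.17% GAGGAAGT. Among the windows of the 9 genes GAGGAAGT occurred in 1, belonging to IDH1. CpG pairs numbered 12 to 33 over the DNMT3A windows, 10 and 34 in those of TET2, 27 and 37 in those of TET3 and 3 in that of DNMT3B, with a median of 11 over all genes' windows, so the number depended on the start site chosen. These matches describe letters and not binding.

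DNMT1 (ENSG00000130816.15, chromosome 19, 10133345 to 10231286, minus strand, GENCODE 29 on GRCh38) was the most abundant of the 9 in CPM, counts scaled to library size with TMM factors. It stood at 549 and 592 CPM in vehicle libraries A and B and at 541 and 533 CPM in DB2115 libraries A and B. In edgeR the log2 change came to -0.09 (adjusted p = 0.25, SE 0.06). The DB2115 values lay just below the lower vehicle value, by less than the spread between the vehicle libraries, and 81.3% of all genes had groups that did not overlap. The sign turned to 0.01 with upper-quartile factors (adjusted p = 0.919) and with total counts (adjusted p = 0.921). Its mean level was above that of 98.8% of genes tested.

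UHRF1 (ENSG00000276043.4, chromosome 19, 4903080 to 4962154, plus strand) encodes the reader of hemimethylated CpG that recruits DNMT1. Its level was 315 and 299 CPM in vehicle and 226 and 210 CPM with DB2115. Both DB2115 libraries were lower than both vehicle libraries, and the means, 307 and 218 CPM, lay 7.63 SD apart (SD 11.6 CPM in each group, n = 2). In edgeR the log2 change came to -0.49 (adjusted p = 1.35e-05, SE 0.06). With the dependence of fold changes on transcript GC and length taken out it was -1.38, or -1.15 relative to the median of all genes. Per library, DNMT1 had 1.74 and 1.98 counts for each UHRF1 count in vehicle and 2.39 and 2.54 with DB2115, so the ratio was higher in both DB2115 libraries without any scaling between libraries.

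DNMT3A (ENSG00000119772.16, chromosome 2, 25227855 to 25342590, minus strand), a de novo methyltransferase and tumour suppressor of myeloid cells, had the largest rise of the 9. It went from 21.8 and 22.2 CPM in vehicle to 64.9 and 75.8 CPM with DB2115. The vehicle libraries were nearly equal and the DB2115 libraries differed from each other by more, but the groups lay far apart. In edgeR the log2 change came to 1.68 (adjusted p = 2.49e-09, SE 0.08), above that of 88.4% of genes tested.

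DNMT3B (ENSG00000088305.18, chromosome 20, 32762385 to 32809356, plus strand), the other active de novo enzyme, went from 35.7 and 34.6 CPM to 79.3 and 75.9 CPM. All 4 libraries lay close to their group mean, and the difference was many times the spread (vehicle SD 0.735 CPM, DB2115 SD 2.39 CPM, n = 2 per group). In edgeR the log2 change came to 1.14 (adjusted p = 9.98e-09, SE 0.07), and 0.49 after removal of the GC and length trend, or 0.72 relative to the median of all genes. The genes differed in how far they rose. DNMT3A had 0.611 and 0.641 counts for each DNMT3B count in vehicle and 0.818 and 0.999 with DB2115.

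Set against DNMT1, both de novo genes gained. DNMT3A had 0.0397 and 0.0375 counts per DNMT1 count in vehicle and 0.12 and 0.142 with DB2115, 3.38-fold higher. For DNMT3B the ratio went from 0.065 and 0.0585 to 0.146 and 0.142, 2.34-fold higher; it was added after the values were known. With 2 libraries against 2 an exact permutation test of a ratio cannot go below p = 0.333, so none is given. DNMT3L, the catalytically inactive partner of the de novo enzymes, stood near the detection limit, with 7 and 6 counts in vehicle and 33 and 23 with DB2115, a ratio of 4.0 with an exact 95% counting interval of 2.16 to 7.97. It passed the filter on low counts through the DB2115 libraries only, so its test (log2 change 1.98, adjusted p = 0.00488, edgeR) is no support for a rise. Adjusted p was 0.0715 with vehicle library B left out and 0.0768 with DB2115 library A left out.

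**Figure D1:**
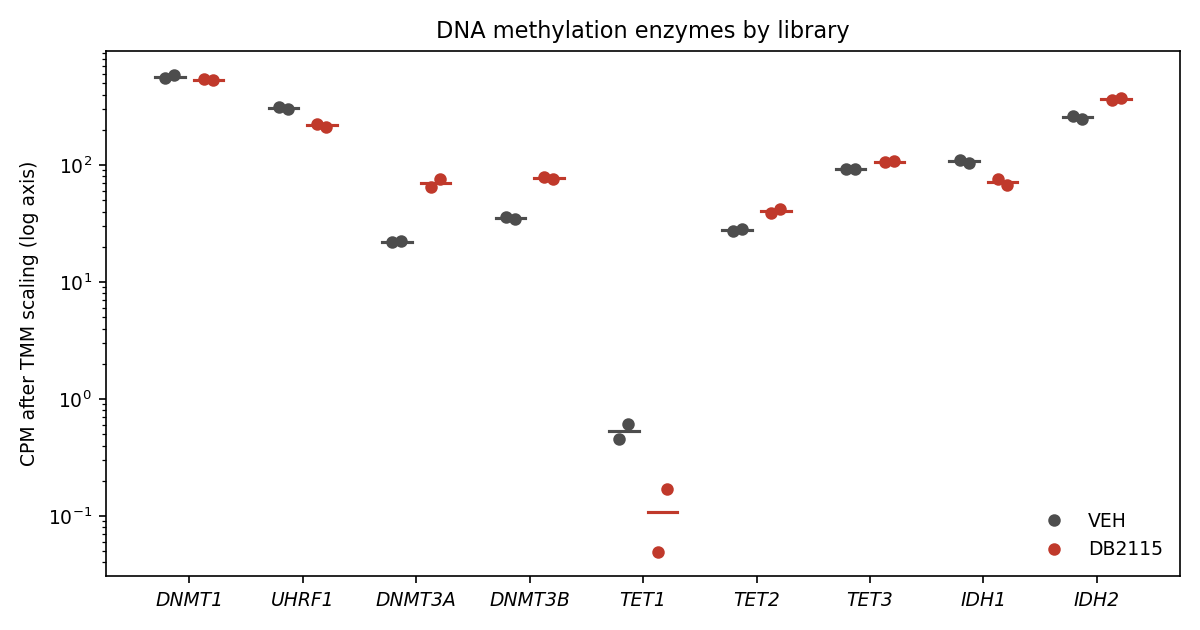
Level of each gene in each library, in CPM after TMM scaling on a log axis; points are libraries (dark grey vehicle, red DB2115) and short lines are group means of 2 libraries. DNMT3A and DNMT3B show the widest separation among the abundant genes, DNMT1 the narrowest, and TET1 lies below 1 CPM in all 4 libraries.

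Among the TET genes, TET3 (ENSG00000187605.15, chromosome 2, 73986404 to 74108176, plus strand) was the most abundant and TET1 nearly silent. TET2 (ENSG00000168769.13, chromosome 4, 105145875 to 105279816, plus strand), the family member most often mutated in myeloid disease, went from 27.3 and 28.2 CPM in vehicle to 38.5 and 42 CPM with DB2115. Both DB2115 libraries were above both vehicle libraries, and in edgeR the log2 change came to 0.53 (adjusted p = 4.42e-05, SE 0.08).

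TET3 stood at 91.8 and 93.3 CPM in vehicle and at 106 and 108 CPM with DB2115. The groups were tight and did not overlap, but the change was small, at 0.21 on the log2 scale in edgeR (adjusted p = 0.0075, SE 0.06). The call was lost without vehicle library A (0.19, adjusted p = 0.0923) or vehicle library B (0.20, adjusted p = 0.0831). After removal of the GC and length trend the value was -0.56, or -0.33 relative to the median of all genes, and 0.01 with a second form of that correction. The direction of TET3 thus depended on that correction. TET3 had 3.36 and 3.3 counts for each TET2 count in vehicle and 2.76 and 2.57 with DB2115, so TET2 gained on TET3 in both DB2115 libraries. The log2 change of that ratio, -0.32, was -0.99 with the trend removed.

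TET1 (ENSG00000138336.8, chromosome 10, 68560656 to 68694482, plus strand) had 16 and 25 counts in vehicle and 2 and 7 with DB2115, all below 1 CPM. The ratio of DB2115 to vehicle was 0.204, with an exact 95% interval of 0.0871 to 0.426 that covers counting error only. In edgeR the log2 change came to -2.25 (adjusted p = 0.00692, SE 0.63). TET1 passed the filter on low counts through the vehicle libraries only, so it had to differ to be tested and the test is no support for the fall. The call was lost without vehicle library B (-2.05, adjusted p = 0.115) or without DB2115 library A (-1.65, adjusted p = 0.0828), and the value was -3.37 without DB2115 library B (adjusted p = 0.00479).

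IDH1 (ENSG00000138413.13, chromosome 2, 208236227 to 208266074, minus strand), the cytosolic and peroxisomal NADP-dependent enzyme, went from 111 and 104 CPM in vehicle to 75.4 and 67.8 CPM with DB2115. Both DB2115 libraries were lower, and in edgeR the log2 change came to -0.58 (adjusted p = 9.22e-06, SE 0.07). IDH2 (ENSG00000182054.9, chromosome 15, 90083045 to 90102504, minus strand), its mitochondrial counterpart, went from 264 and 248 CPM to 360 and 373 CPM. Both DB2115 libraries were higher, at 0.52 on the log2 scale in edgeR (adjusted p = 7e-06, SE 0.06). That value was -0.18 after removal of the GC and length trend, 0.05 relative to the median of all genes, and 0.47 with the second form of the correction.

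IDH2 supplied 70.5% of the summed IDH1 and IDH2 counts in either vehicle library, against 82.7% and 84.6% after DB2115. Correspondingly, IDH1 had 0.418 and 0.419 counts per IDH2 count in vehicle and 0.21 and 0.182 with DB2115. The vehicle ratios were almost identical, and the ratio was 2.15-fold lower with DB2115, a change of -1.10 on the log2 scale. Transcript GC content differs between the genes, with 43.1% in the longest IDH1 transcript and 55.9% in that of IDH2. With the GC and length trend removed the log2 change of the ratio was -0.32, and -0.77 with the second form of the correction, so most of it went with the first.

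**Figure D2:**
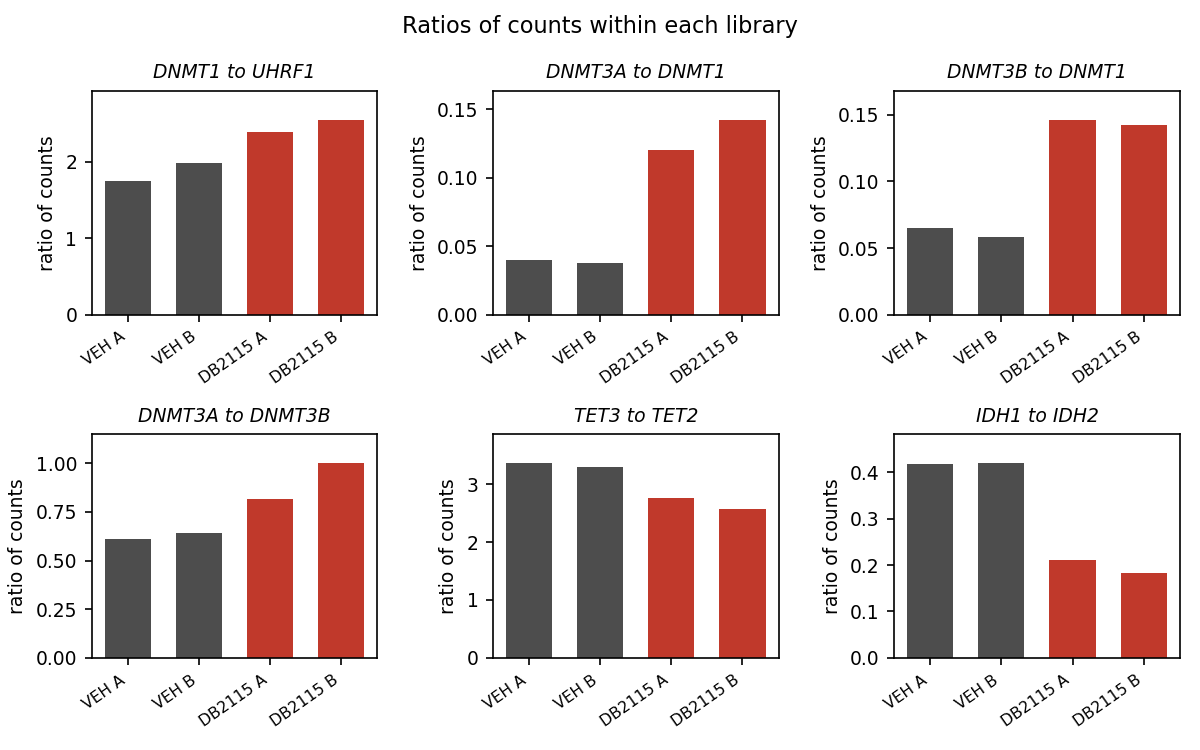
Ratio of counts of one gene to another within each library (bars from 0; dark grey vehicle, red DB2115), which does not depend on scaling between libraries. In each of the 6 panels both DB2115 bars lie on the same side of both vehicle bars, with IDH1 to IDH2 falling from 0.418 and 0.419 to 0.21 and 0.182.

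Divided by merged exon length, levels can be set side by side between genes, in CPM per kilobase. In vehicle the order was IDH2 (91 ± 4.06, SD, n = 2), UHRF1 (59.6 ± 2.26), DNMT1 (58.2 ± 3.1), IDH1 (22.7 ± 0.988), DNMT3B (7.59 ± 0.159), TET3 (7.54 ± 0.0884), DNMT3A (1.83 ± 0.0253), TET2 (1.69 ± 0.039) and TET1 (0.0571 ± 0.0114). On this length UHRF1 and DNMT1 did not differ beyond their spread, nor did DNMT3B and TET3. With DB2115 DNMT1 (54.8 ± 0.601) lay above UHRF1 (42.3 ± 2.25), and DNMT3B (16.8 ± 0.516) lay above IDH1 (15.2 ± 1.14) and TET3 (8.73 ± 0.0894). DNMT3A reached 5.85 ± 0.645, TET2 2.44 ± 0.148 and IDH2 130 ± 3.48, while TET1 was at 0.0117 ± 0.00915. Merged exons overstate the length of single transcripts, and unequally. For DNMT1 they span 9796 against 5408 bases in the longest one, for IDH1 4721 against 2441, but for DNMT3B 4630 against 4336. The order between genes is thus approximate, and the SD does not cover this error. The order of DNMT1 with UHRF1 and IDH2 in vehicle, of DNMT3A with TET2 in vehicle, and of DNMT3B with IDH1 after DB2115, depends on the length used.

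**Figure D3:**
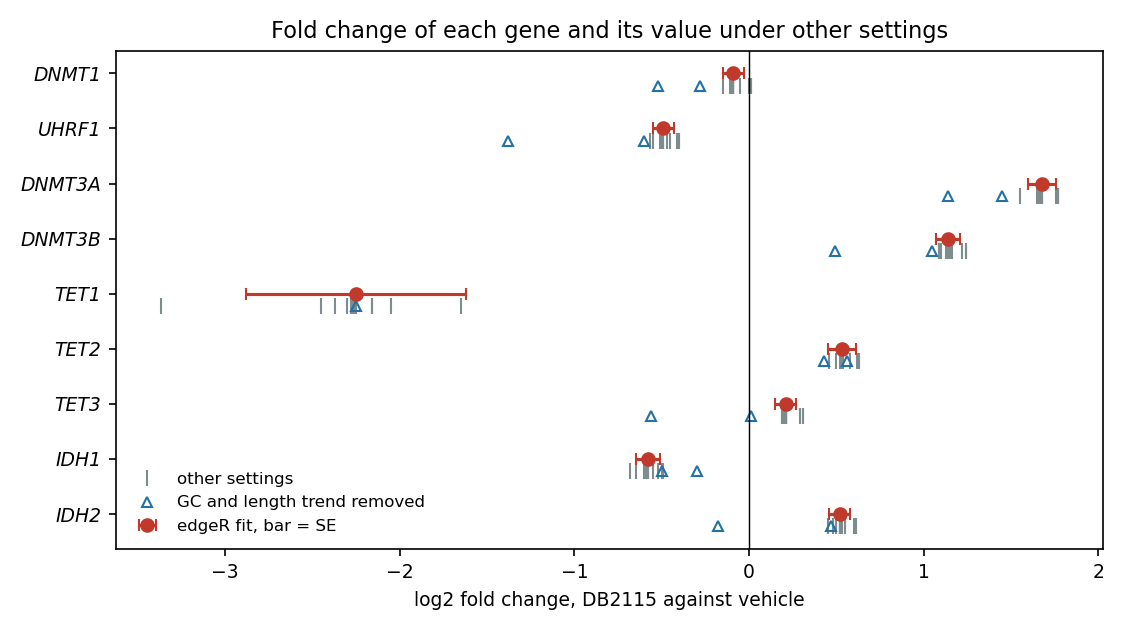
Log2 fold change of each gene, DB2115 against vehicle; red points are the edgeR fit with bars of 1 SE, grey ticks the values under other settings and blue triangles those after removal of a GC and length trend. DNMT3A and DNMT3B stay above 0 and UHRF1, IDH1 and TET1 below 0 in every setting drawn, while DNMT1, TET3 and IDH2 cross 0.

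Of 15 tested partners of the methyltransferases, 7 fell (46.7%, against 31.3% of all genes), 3 rose (20.0% against 32.7%) and 5 were not called. Their median log2 fold change was -0.15, against 0.03 over all genes tested. Those that rose include DNMT3L, which passed the filter through the DB2115 libraries only and so had to rise to be tested. Those that rose numbered 1 without vehicle library A, 0 without vehicle library B and 1 without DB2115 library A, and the median was -0.60 with the GC and length trend removed. The chromatin remodeller HELLS fell from 45.1 ± 1.31 to 22.2 ± 0.612 CPM, CDCA7, which recruits HELLS, from 113 ± 4.81 to 57.1 ± 2.26 CPM, and its paralogue CDCA7L from 133 ± 0.581 to 64.2 ± 5.04 CPM (n = 2 each). UHRF2, the paralogue of UHRF1, fell with a log2 fold change of -0.92 (adjusted p = 4.55e-08, edgeR). USP7, a deubiquitinase that binds DNMT1 and UHRF1, fell by 0.27 on the log2 scale (adjusted p = 0.00414), a call lost with total counts (adjusted p = 0.0565) and without vehicle library B (adjusted p = 0.115). PCNA, the replication clamp that also binds DNMT1, was at 208 ± 7.55 and 212 ± 8.2 CPM and was not called.

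Because DNMT1 and UHRF1 are transcribed most strongly around S phase, genes of DNA replication are given beside them. Of 25 tested, 16 fell (64.0%, against 31.3% of all genes), 2 rose (8.0% against 32.7%) and 7 were not called. Their median log2 fold change was -0.28. MCM6 (-1.15) and MCM4 (-0.92), subunits of the replicative helicase, fell, whereas the thymidine kinase gene TK1 (0.92) rose. TK1 was at 0.20 and the list's median at -0.68 with the GC and length trend removed, and 5 genes rose with upper-quartile factors or total counts. The fall of UHRF1 (-0.49) was within the range of these genes, and whether it moved with a change in cell cycle was not tested. In bulk RNA, fewer cells in a phase and less RNA per cell cannot be told apart.

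Of 12 methyl-CpG readers tested, 4 rose, 4 fell and 4 were not called (median log2 fold change -0.10), shares of 33.3% each way that lie near those of all genes. Those that fell numbered 2 with upper-quartile factors, with total counts, and without vehicle library A, vehicle library B or DB2115 library B. GATAD2B (1.17), a subunit of the NuRD complex, ZBTB4 (0.85), a methyl-CpG-binding zinc finger protein, and MBD4 (0.61), a glycosylase that reads methyl-CpG, rose, whereas ZBTB33 (-1.09), which encodes the reader Kaiso, fell. With the GC and length trend removed ZBTB4 was at 0.12.

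Genes acting after TET oxidation were more often lower than higher. Of 14 tested genes of active demethylation and base excision, 8 fell (57.1%, against 31.3% of all genes). Another 4 rose, 28.6%, near the 32.7% of all genes, and 2 were not called (median log2 fold change -0.30). Below the filter lay 2 of the 16 listed. TDG, the glycosylase that removes oxidised methylcytosine, fell from 137 ± 1.12 to 92.2 ± 5.07 CPM (log2 fold change -0.58, adjusted p = 3.75e-06, edgeR). The endonuclease genes APEX1 and NTHL1 each had a log2 fold change of -0.91. NEIL1, another glycosylase, rose from 3.63 ± 0.622 to 10 ± 0.657 CPM (log2 fold change 1.45). With the GC and length trend removed NTHL1 was at -1.61, NEIL1 at 0.71 and the list's median at -0.51.

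Of 8 tested regulators of TET proteins, 4 fell, 2 rose and 2 were not called (median log2 fold change -0.19). Of all genes tested, 31.3% fell and 32.7% rose. Only 1 of these regulators rose without vehicle library A, vehicle library B or DB2115 library B. Their median was -0.69 with the GC and length trend removed and -0.09 with upper-quartile factors. DCAF1 (-0.58) and CUL4A (-0.53), parts of a ubiquitin ligase that modifies TET proteins, and WT1 (-0.49), a transcription factor that binds TET2 and TET3, fell. OGT, which binds TET proteins, fell by 0.19 on the log2 scale (adjusted p = 0.0281, edgeR), a call lost with upper-quartile factors (adjusted p = 0.248), with total counts (adjusted p = 0.269), under a floor of 1 CPM in 3 libraries (adjusted p = 0.184), and without vehicle library B (adjusted p = 0.264) or DB2115 library A (adjusted p = 0.0837). CXXC5, an adaptor linked to TET2, was at 138 ± 1.11 and 150 ± 8.65 CPM and was not called.

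Around IDH1 and IDH2, most other genes of 2-oxoglutarate and 2-hydroxyglutarate metabolism fell. Of 28 tested, 20 fell (71.4%, against 31.3% of all genes) and none rose in the reported edgeR fit (against 32.7%). At an unadjusted p under 0.05, 1 was higher and 21 lower, and DESeq2 and limma-voom also called 0 higher. With upper-quartile factors 6 rose and 19 fell, and the median log2 fold change went from -0.37 to -0.28. Those that rose numbered 6 with total counts, 5 under a floor of 1 CPM in 3 libraries and 3 with a block on the column letter. That none rose thus depended on the scaling, filter and model. The median was -0.72 with the GC and length trend removed. LDHA (-1.20), lactate dehydrogenase, FH (-0.92), fumarate hydratase, and BCAT1 (-0.92), a transaminase that consumes 2-oxoglutarate, fell. Of the NAD-dependent isocitrate dehydrogenase, the IDH3A (-0.39) and IDH3B (-0.30) subunit genes fell, and IDH3G stood at 126 ± 2.11 and 138 ± 7.32 CPM and was not called, but was called higher with upper-quartile factors (adjusted p = 0.00666). D2HGDH (-0.42), which oxidises D-2-hydroxyglutarate back to 2-oxoglutarate, fell as well.

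The S-adenosylmethionine cycle, which supplies the methyl donor of every DNMT, was mostly lower. Of 10 tested, 6 fell (60.0%, against 31.3% of all genes), 2 rose (20.0% against 32.7%) and 2 were not called. Their median log2 fold change was -0.78. Only 1 rose with DESeq2 and without vehicle library A, vehicle library B or DB2115 library B. MAT2A, which makes S-adenosylmethionine, fell from 253 ± 1.83 to 123 ± 10.9 CPM, and AHCY, which clears the product S-adenosylhomocysteine, from 344 ± 13.2 to 176 ± 8.5 CPM (n = 2 each). Methionine synthase MTR (-1.20) and adenosine kinase ADK (-1.23) fell too. DNMT3A and DNMT3B rose in the same libraries in which the genes making and recycling their cofactor fell.

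**Figure D4:**
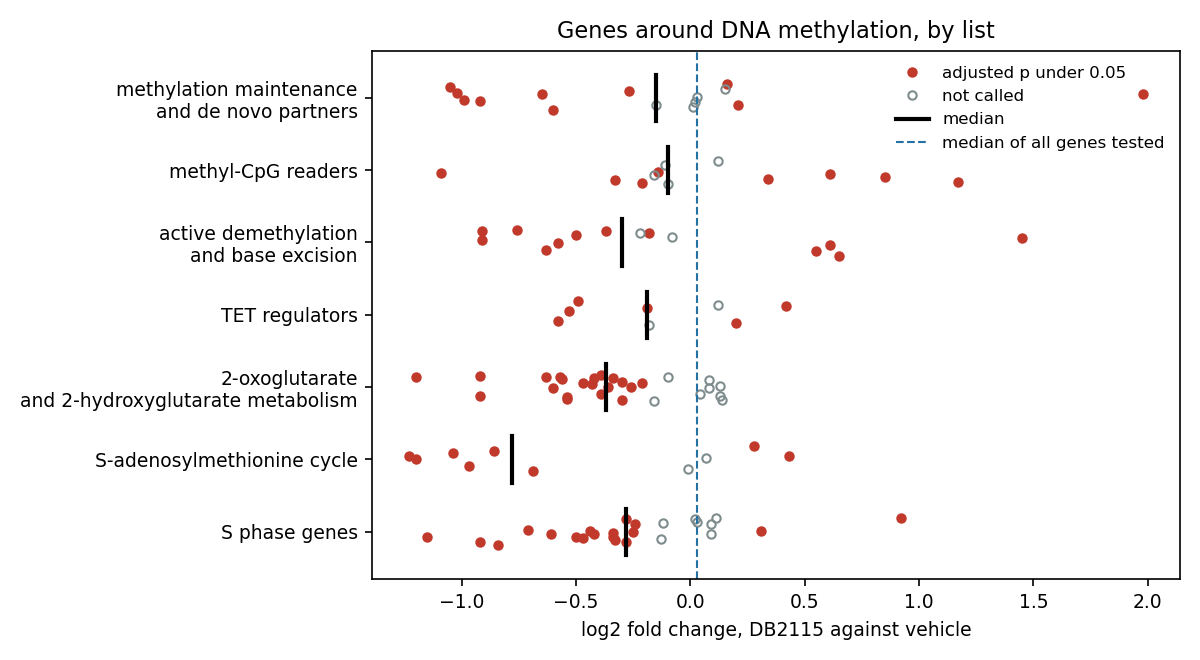
Log2 fold change, DB2115 against vehicle, of each tested gene in 7 lists around DNA methylation; filled points passed adjusted p under 0.05, black bars are list medians and the dashed line is the median of all genes tested, 0.03. The S-adenosylmethionine cycle has the lowest median, -0.78, and methyl-CpG readers lie on both sides of 0.

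Germline genes that carry promoter methylation in most somatic cells were mostly silent. Of 34 listed, 29 lay below the filter and 15 had no count in any library. Of the 5 tested, 2 rose (40.0%, against 32.7% of all genes), 1 fell (20.0% against 31.3%) and 2 were not called. Their median log2 fold change was 0.06. A gene that passed the filter through the DB2115 libraries only, as TDRD9 did, had to rise to be tested. TDRD9, a piRNA-pathway helicase gene, had 0 and 2 counts in vehicle and 512 and 608 with DB2115, a ratio of 520 with an exact 95% counting interval of 144 to 4300. The X-linked gene MAGEB2 rose from 7.23 ± 0.841 to 17.2 ± 1.1 CPM, and XAGE1A, which has near-identical copies and is uncertain, fell from 298 ± 24.2 to 191 ± 12.6 CPM. Below the filter, MAEL had 2 and 86 counts in vehicle libraries A and B and 0 and 0 with DB2115. DDX4 had 1 and 27 in vehicle and 2 and 0 with DB2115, so both stood out in vehicle library B only. Methylation at these promoters was not measured.

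Total counts ran from 36547900 to 42446253 per library, so 3 counts correspond to between 0.0725 and 0.0854 CPM. All 10 markers of the myeloid leukaemia line averaged at least 1 CPM over both groups together. After DB2115 5 of them were higher and 4 lower, where 32.7% of all genes were higher and 31.3% lower. ANPEP did so only through the DB2115 libraries, at 0.342 and 0.121 CPM in vehicle and 4.03 and 5.02 CPM with DB2115. PTPRC fell from 205 and 203 to 35.2 and 32.3 CPM. Summed T-cell markers were 4.18 and 4.33 CPM in vehicle and 23.5 and 19.6 CPM with DB2115, mostly TRAC, with CD2 at 0 in all libraries. Summed B-cell markers went from 50.2 and 52 to 27.1 and 29.7 CPM, epithelial ones from 4.04 and 2.59 to 67 and 64.7 CPM, nearly all KRT8, and fibroblast ones from 12.8 and 5.59 to 39 and 52.1 CPM. Of the 5 markers in each list, 2 T-cell, 3 B-cell, 1 epithelial, 1 fibroblast and 1 erythroid marker rose, and 1 B-cell marker fell. The T-cell marker CD3E and the erythroid marker KLF1 passed the filter on low counts through the DB2115 libraries only. They had to rise to be tested, so their calls are no support for a rise. The B-cell marker CD79B and ANPEP also needed the DB2115 libraries to pass. Erythroid markers summed to at most 0.44 CPM in any library. The part of these genes in the results was not tested. Reads shared with overlapping genes are few, since exons of S1PR2 cover 0.847% of DNMT1 exon length and those of IDH1-AS1 1.99% of IDH1, and TET2-AS1 had at most 1 count in any library.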

How the data were processed

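The authors deposited raw read counts per gene, not normalised, for 58381 versioned Ensembl identifiers in 6 columns. Per the submitters' processing notes FastQC, STAR, DESeq2 and build hg38 were used. Not given in the sources used here: versions, counting tool, annotation, strandedness. Symbols were matched for 58216 identifiers through a name table and GENCODE 29, whose identifiers and versions equal those of all 9 genes. A pooled column of each group was left out, leaving 2 libraries per group. The labels do not say that libraries came from separate cultures, so a p-value reflects spread among these libraries alone, possibly technical.

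Counts were filtered with filterByExpr (minimum count 10, minimum total 15), scaled by TMM and tested with edgeR 4.0.16 (glmQLFit, glmQLFTest) in R 4.3.3, treatment being the only term. The fit was also run on simulated data in which only a small share of genes changed. That check does not cover data in which most genes are called, as here. Standard errors were derived from each gene's F statistic. Exact intervals used scipy 1.17.1. The alternatives included DESeq2 1.42.0 and limma 3.58.1 (voom). Scaling by TMM assumes that few genes move, yet 64.1% were called; values are relative levels, blind to RNA content per cell. The GC and length correction removed a loess trend (span 0.3) of fold change with median transcript GC content and length. A second form, added after the first was known, used the longest transcript and genes with 1 CPM in 3 libraries. The 9 genes and all lists were chosen with earlier results of these data known. Of the other lists, 16 genes were always to be named, 1 of which is not reported here, plus up to 3 per list with the largest called change whose mean reached 5 CPM and whose groups did not overlap. PCNA and the marker genes were named after their values were known.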

Additional observations from a re-analysis of the deposited data

How the results depend on the processing

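Outside the GC and length corrections, 110 of 116 values of the 9 genes kept their direction and call over up to 13 alternatives, and the counts stayed at 4 or 5 higher and 2 or 3 lower. DNMT3A ranged from 1.55 to 1.77, DNMT3B from 1.09 to 1.24, UHRF1 from -0.57 to -0.40, TET2 from 0.46 to 0.63, IDH1 from -0.68 to -0.49 and IDH2 from 0.45 to 0.61, all still called. DNMT1 turned to 0.01 with upper-quartile factors or total counts, which moved the median of all genes by 0.09. With a library left out, TET1 ranged from -3.37 to -1.65 and TET3 from 0.19 to 0.21, and TET1 could not be tested under a floor of 1 CPM in 3 libraries. Removal of the GC and length trend, which has no test, put the median of all genes at -0.23 (median shift per gene -0.33) and gave -0.52 for DNMT1, 1.14 for DNMT3A, 0.49 for DNMT3B, -1.38 for UHRF1, 0.43 for TET2, -0.56 for TET3, -0.50 for IDH1 and -0.18 for IDH2. CXXC5 turned to -0.71 and IDH3G to -0.50, AHCY went to -1.63 and D2HGDH to -1.12. The second form gave -0.28, 1.45, 1.05 and -0.60 for DNMT1, DNMT3A, DNMT3B and UHRF1, 0.01 for TET3 and -0.30 for IDH1. Among the companion lists 18 genes rose in the reported fit, and 31 with upper-quartile factors, 31 with total counts and 28 under a floor of 1 CPM in 3 libraries. The median of the germline list turned to -0.07 without a filter on low counts and ranged from -0.73 to -0.15 with a library left out. With a library left out the filter was applied anew, so the genes entering these medians could differ from the 5 of the reported fit. The cause was not tested. A block on the column letter gave the same 5 higher and 3 lower genes among the 9, and 5810 higher and 5614 lower in all. Same-lettered libraries did not deviate together (r = 0.0159 across 17219 genes), and the letters are not tied to the replicate numbers of the labels. Depth limits TET1, DNMT3L and most germline genes.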
